A study of Mus musculus with 7 samples.

Results

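The enzymes described here build, sulfate, edit and cut the chains of heparan sulfate and chondroitin sulfate, the sulfated sugar polymers that proteoglycans carry at the cell surface and in the extracellular matrix. They were chosen by gene symbol from a list of 46 genes, and 44 of these were among the 17732 genes of the authors' deposited table. Chst13 and Hs3st6 were not analysed here. The 44 enzymes comprised 5 that make the linker shared by both polymers, 15 that act on chondroitin or dermatan sulfate and 24 that act on heparan sulfate. Bulk polyadenylated RNA had been sequenced from the medial prefrontal cortex of 129SvEv mice, an inbred strain, all male and wild-type (WT), taken after an old memory had been retrieved. The labels name 3 libraries CFC and 4 libraries SC by treatment, do not spell these names out, and give no age. All animals thus shared strain, genotype, sex and tissue, and the series title ties the study to parvalbumin (PV) interneurons, oligodendrocytes and the extracellular matrix in safety learning. Whether each library is 1 animal is not given, so the p-values measure the spread between these libraries, part of which may be technical.

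A proteoglycan chain starts on a serine of a core protein with a short linker of xylose, galactose and glucuronic acid. The next sugar decides whether the chain becomes chondroitin or heparan sulfate, and sulfotransferases and epimerases then write a pattern along it that sets which proteins bind. In the cortex, chondroitin sulfate chains on lecticans form much of the perineuronal net around parvalbumin interneurons, and enzymatic removal of these chains is a classic way to reopen plasticity. Heparan sulfate on syndecans and glypicans serves growth factors, axon guidance cues and synaptic organisers as a co-receptor.

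The deposited table gives for each gene a mean normalized count over the 7 libraries, a log2 fold change between the groups with its standard error, and DESeq2's Wald test. Values by library were not analysed here, so the spread between libraries enters only through the standard error. The table does not say which group is the numerator, and each difference is therefore given by its sign, with no group named as higher. Values such as 0.62 ± 0.11 (SE) are log2 fold changes with the standard error. A gene is called when its adjusted p-value, taken over all genes, is under 0.05. Of the 44 enzymes, 43 had a p-value and 38, those with the higher mean counts, also had an adjusted one.

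Among the enzymes, 2 were called, both on heparan sulfate and both positive. They were Sulf1, an extracellular endosulfatase that removes 6-O-sulfate groups from finished heparan sulfate chains, and Hs3st4, a sulfotransferase that adds the rare 3-O-sulfate group. These 2 were 5.26% of the 38 enzymes with an adjusted p-value, where 0.513% of all 13060 such genes were called (0.368% as positive). Sulf1 had in the authors' deposited table a log2 value of 0.62 ± 0.11 (SE) and an adjusted p-value of 1.26e-04 by DESeq2's Wald test. Its 95% confidence interval ran from 0.39 to 0.84 on the log2 scale, or from 1.31-fold to 1.79-fold. For Hs3st4 the authors' deposited table gave a log2 fold change of 0.49 ± 0.10 (SE) and an adjusted p-value of 0.00135 by DESeq2's Wald test. Its interval ran from 0.29 to 0.69, or from 1.22-fold to 1.61-fold. By p-value, Sulf1 stood at rank 8 and Hs3st4 at rank 16 of all genes. Tested for a difference of more than 1.2-fold, neither was called (adjusted p-value 1 for each). That value was adjusted over the 13060 genes, whereas the intervals above, which begin at 1.31-fold and 1.22-fold, carry no such adjustment. In bulk RNA, fewer cells of a type and less RNA per cell cannot be told apart.

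A further 5 enzymes had an unadjusted p-value under 0.05 and were not called, and all 5 were positive as well. They were Hs3st5, Xylt1, Hs6st2, Chsy3 and Ndst1. Together with the called pair they made 7 of the 43 enzymes with a p-value (16.3%), beside 6.82% of all 17729 such genes. Positive genes made up 4.04% and negative genes 2.78% of all genes at that p-value, and no enzyme was negative at it. The median log2 fold change over the 43 enzymes was 0.0053, beside 0.00098 over all genes, and 22 of the 43 lay within 0.1 of 0.

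Split by polymer, the linker enzymes had 2 positive values of 5 and a median log2 fold change of -0.014. Chondroitin and dermatan enzymes had 7 positive values of 15 and a median of -0.025. Heparan enzymes had 14 positive values of 23 and a median of 0.023. All genes were positive in 50.3% of cases. The medians of the classes were not tested against each other. Both called genes belonged to the heparan branch, which held 20 of the 38 enzymes with an adjusted p-value. The other 2 classes held 13 (chondroitin) and 5 (linker). With only 2 calls, the classes cannot be compared by their calls.

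Levels are compared between genes as mean normalized count per kb of exon, since libraries of fragments give more reads to a long transcript than to a short one that is equally abundant. The exon length is the union of all exons of the gene in GENCODE M21, and the longest protein-coding transcript was tried as well. Over all genes the median was 63.7 per kb, and 29 of the 44 enzymes lay above it. No error can be given for a level, because only the mean over the libraries was used.

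**Figure D1:**
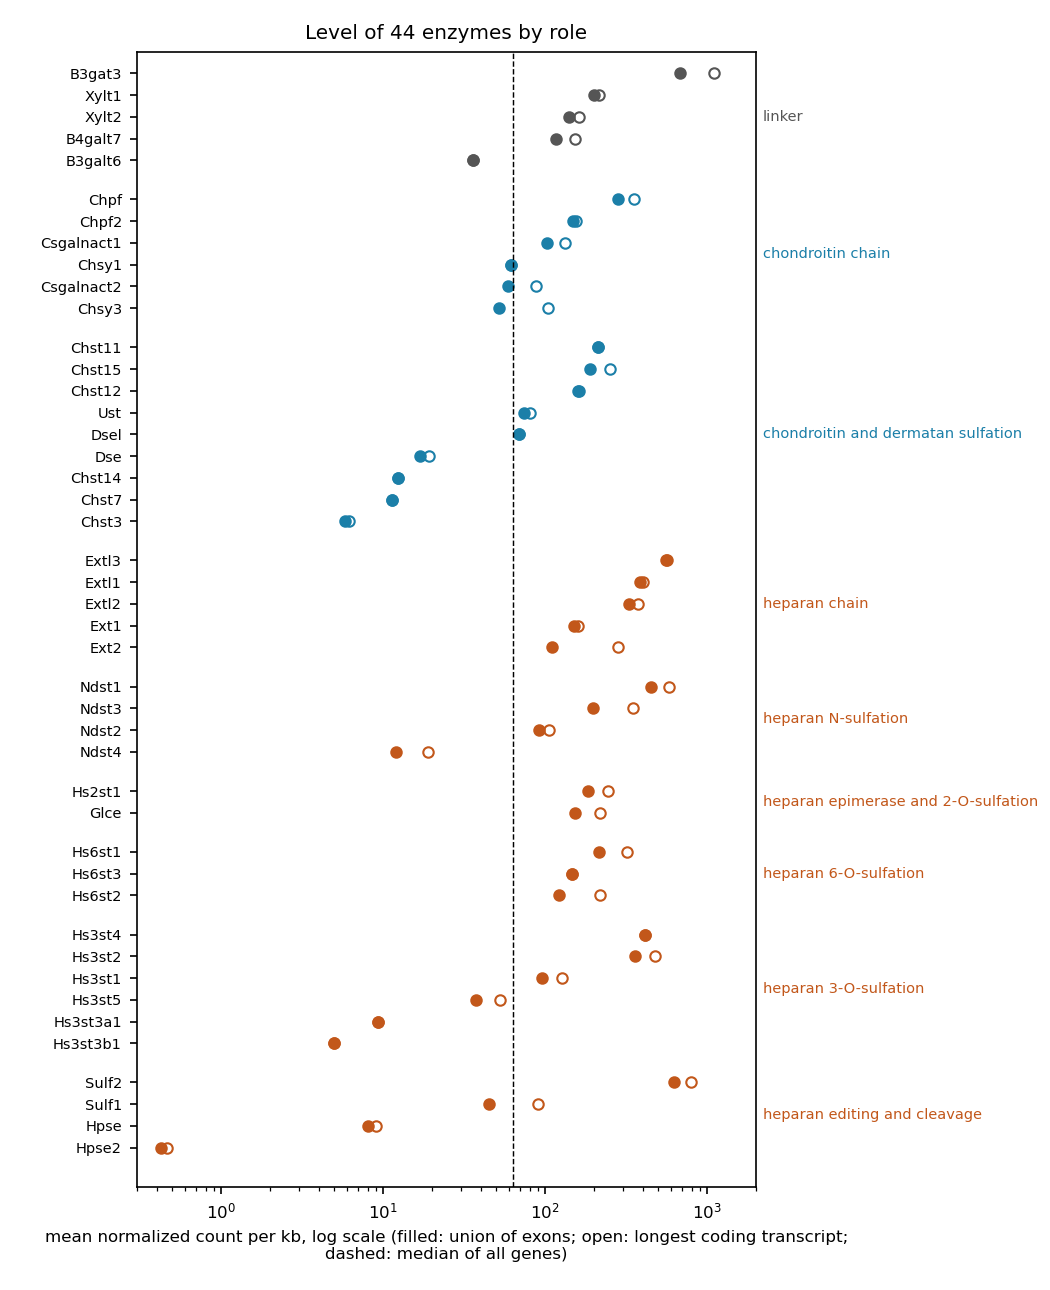
Mean normalized count per kb (log axis) of the 44 enzymes, grouped by role, with exon length taken as the union of exons (filled) or the longest coding transcript (open). The dashed line is the median of all genes at 63.7 per kb. B3gat3, Sulf2, Extl3 and Ndst1 lead their roles, while Hpse2 lies at 0.426 per kb.

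The 5 linker enzymes act in a fixed order of steps, the first of which Xylt1 and Xylt2 share. Xylt1 and Xylt2, the xylosyltransferases that start the linker, stood at 201 and 139.8 per kb. B4galt7 and B3galt6, the galactosyltransferases that follow, stood at 116 and 36.0 per kb. B3gat3, which closes the linker with glucuronic acid, was the most abundant of the 5 at 679 per kb. In the authors' deposited table Xylt1 had the highest value of the role, 0.22 ± 0.07 (SE), with an unadjusted p-value of 0.00267 and an adjusted p-value of 0.187 by DESeq2's Wald test. Its paralog Xylt2 lay at -0.014 ± 0.09 (SE) per the authors' deposited table (adjusted p-value 0.999 by DESeq2's Wald test). The 95% intervals of the pair, 0.08 to 0.37 for Xylt1 and -0.19 to 0.17 for Xylt2, overlapped, and the difference between the paralogs was not tested. B3gat3 was the lowest at -0.11 ± 0.07 (SE), with an adjusted p-value of 0.859 by DESeq2's Wald test in the authors' deposited table.

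Chondroitin chains are begun by Csgalnact1 and Csgalnact2 and lengthened by Chsy1, Chsy3, Chpf and Chpf2, which act as pairs. Chpf was the most abundant of the 6 at 279.8 per kb, followed by Chpf2 at 148 and Csgalnact1 at 103 per kb. The other 3 lay between 51.7 and 61.6 per kb, just under the median of all genes. All 6 had an adjusted p-value, none was called by DESeq2's Wald test, and 5 were positive. In the authors' deposited table Chsy3 was the highest, with a log2 fold change of 0.21 ± 0.10 (SE), an unadjusted p-value of 0.0313 and an adjusted p-value of 0.562 by DESeq2's Wald test. Its relative Chsy1 had 0.18 ± 0.12 (SE) per the authors' deposited table (adjusted p-value 0.875 by DESeq2's Wald test). For the 2 polymerising factors the values were near 0 and precise. Chpf had 0.0060 ± 0.07 (SE) and an adjusted p-value of 0.999 by DESeq2's Wald test per the authors' deposited table, and its 95% interval ran from -0.13 to 0.14. That of Chpf2 ran from -0.16 to 0.17. Csgalnact1 was the lowest of the role and its only negative member, at -0.03 ± 0.10 (SE) per the authors' deposited table (adjusted p-value 0.999 by DESeq2's Wald test). Of the exon length of Chpf2, 44.1% overlaps Smarcd3 on the opposite strand in GENCODE M21. The strand setting of the counting is not given in the sources used here, so the reads of this pair cannot be told apart.

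Sulfation of chondroitin sulfate is of most interest for perineuronal nets, where the balance of 4-O- and 6-O-sulfate shifts as the cortex matures. Chst11 and Chst12, which add 4-O-sulfate, stood at 210.5 and 159.8 per kb. Chst15, which adds a further 6-O-sulfate to a 4-O-sulfated unit, stood at 188 per kb. Chst3 and Chst7, which make the 6-O-sulfated form, stood at only 5.81 and 11.3 per kb. The transcripts of Chst11 and Chst12 thus each exceeded those of Chst3 and Chst7 by over 10-fold per length. Dsel and Dse, the epimerases that turn chondroitin into dermatan sulfate, stood at 69.1 and 16.9 per kb, Ust, the uronyl 2-O-sulfotransferase, at 74.0 and Chst14, the dermatan 4-O-sulfotransferase, at 12.3 per kb.

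None of the 9 chondroitin and dermatan modifying enzymes was called, and none had an unadjusted p-value under 0.05 by DESeq2's Wald test. Of the 9, 7 were negative, and the median log2 fold change was -0.08. Chst11, Chst12 and Chst15, the 3 most abundant, had log2 fold changes of -0.05, -0.08 and -0.08 (SE 0.08, 0.10 and 0.07) per the authors' deposited table. Their adjusted p-values by DESeq2's Wald test were 0.994, 0.994 and 0.941 per the authors' deposited table. The lowest value of the role was that of Chst7, -0.29 ± 0.35 (SE), with an unadjusted p-value of 0.409 by DESeq2's Wald test per the authors' deposited table, and its mean count was too low for an adjusted one. The highest was that of Dsel, 0.16 ± 0.12 (SE), with an adjusted p-value of 0.906 by DESeq2's Wald test per the authors' deposited table. The epimerases Dse and Dsel had opposite signs, at -0.28 and 0.16 (SE 0.21 and 0.12) per the authors' deposited table, and each interval included 0. Precision was poor for the 6-O-sulfotransferases. At a mean count of 37.8 per the authors' deposited table, Chst3 would have needed a 2.26-fold difference to be called, and its 95% interval ran from -0.74 to 0.51.

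Heparan chains are initiated with the help of Extl3 and lengthened by the complex of Ext1 and Ext2, while Extl1 and Extl2 are related glycosyltransferases. Extl3 was the most abundant at 559.9 per kb, followed by Extl1 at 384, Extl2 at 327, Ext1 at 151 and Ext2 at 110.1 per kb. On the longest transcript in place of the union of exons, Ext2 reached 281 per kb and Ext1 159 per kb, so the order of these partners depends on the exon model. All 5 were well measured and none was called by DESeq2's Wald test. The lowest value was that of Ext2, -0.13 ± 0.08 (SE), with an unadjusted p-value of 0.101 and an adjusted p-value of 0.819 by DESeq2's Wald test in the authors' deposited table. The highest was that of Ext1, 0.0079 ± 0.08 (SE) per the authors' deposited table (adjusted p-value 0.999 by DESeq2's Wald test). For Extl3 the authors' deposited table gave -0.09 ± 0.07 (SE) and an adjusted p-value of 0.911 by DESeq2's Wald test. The 95% intervals of the 5 lay between -0.28 and 0.17, which leaves room for no more than small differences of either sign.

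The N-deacetylase and N-sulfotransferases (Ndst genes) come next and open the chain to all later sulfation. Ndst1 held 60.1% of the summed level of the 4 genes, at 452 per kb, Ndst3 26.1% at 196 per kb, Ndst2 12.1% at 91.1 per kb and Ndst4 1.59%. Ndst1 had a log2 fold change of 0.11 ± 0.06 (SE), an unadjusted p-value of 0.0494 and an adjusted p-value of 0.647 by DESeq2's Wald test in the authors' deposited table. Ndst3 was the lowest at -0.09 ± 0.08 (SE), with an adjusted p-value of 0.955 by DESeq2's Wald test per the authors' deposited table. Ndst2 had 0.05 ± 0.10 (SE) per the authors' deposited table. Ndst4 was 1 of 3 genes listed without any p-value. With a mean count of 140.3, its log2 fold change of 1.05 had a standard error of 1.37 per the authors' deposited table, 8.64 times the median of genes of similar mean count. DESeq2 leaves out the p-value of a gene when the count of a single library is extreme, and the libraries behind this value were not analysed here. Its interval ran from -1.64 to 3.74, so the direction of Ndst4 was not resolved.

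Glce, the epimerase that turns glucuronic into iduronic acid, and Hs2st1, the only heparan 2-O-sulfotransferase, act together. They stood at 153.8 and 184 per kb. Glce had a log2 fold change of 0.06 and Hs2st1 one of -0.0086, each with a standard error of 0.07 per the authors' deposited table. Neither was called by DESeq2's Wald test, with adjusted p-values of 0.989 and 0.999 per the authors' deposited table.

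The 6-O-sulfotransferases add the group that Sulf1 and Sulf2 later remove. Hs6st1 led with 215 per kb, and Hs6st3 and Hs6st2 followed with 146 and 122 per kb, an order that reversed for the latter pair on the longest transcript. Hs6st2 had the highest log2 fold change, 0.25 ± 0.10 (SE), with an unadjusted p-value of 0.0135 and an adjusted p-value of 0.402 by DESeq2's Wald test in the authors' deposited table. Hs6st1 was the lowest at -0.11 ± 0.08 (SE), with an adjusted p-value of 0.883 by DESeq2's Wald test per the authors' deposited table. Hs6st3 had 0.0022 ± 0.15 (SE) per the authors' deposited table. The 95% interval of Hs6st2, from 0.05 to 0.45, lay just above that of Hs6st1, from -0.27 to 0.04, and the difference between the genes was not tested.

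The 3-O-sulfotransferases place the last and rarest mark, and the members of the family differ in the sites they act on. Hs3st1 is best known for making the site that binds antithrombin. Hs3st4, on the plus strand of chromosome 7 from 123982869 to 124398989 (mm10), had the highest level at 413 per kb and held 45.0% of the summed level of the family. Hs3st2, at 121391859 to 121501770 on the same chromosome and strand, held 39.0% at 358 per kb. On the longest transcript the order turned, with 38.1% for Hs3st4 and 44.2% for Hs3st2. Hs3st1 stood at 95.3, Hs3st5 at 37.3, Hs3st3a1 at 9.24 and Hs3st3b1 at 4.99 per kb. The cortex sampled here thus held mainly 2 of the 6 genes, and only 1 of these was called.

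Of the 6 genes, 5 were positive, and the median of their log2 fold changes was 0.26. Beside Hs3st4 at 0.49, Hs3st5 had 0.46 ± 0.15 (SE), an unadjusted p-value of 0.00203 and an adjusted p-value of 0.169 by DESeq2's Wald test in the authors' deposited table. The estimates of the pair were close, but the standard error of Hs3st5, at a mean count of 161.8 per the authors' deposited table, set the size needed for a call at 1.47-fold, above its estimate of 1.38-fold. Hs3st2 differed little, with a log2 fold change of 0.09 ± 0.07 (SE) and an adjusted p-value of 0.922 by DESeq2's Wald test in the authors' deposited table. Its 95% interval, from -0.05 to 0.23, did not reach that of Hs3st4, which began at 0.29, and the difference between these genes was not tested. Hs3st1 was negative at -0.22 ± 0.16 (SE), with an adjusted p-value of 0.875 by DESeq2's Wald test in the authors' deposited table. Hs3st3a1 had 0.42 and Hs3st3b1 0.02 (SE 0.31 and 0.39) per the authors' deposited table. Their sulfotransferase domains are nearly identical, and whether this affected the counting of their reads was not tested. Of the exon length of Hs3st3a1, 32.9% also overlaps F930015N05Rik on the opposite strand, and 4.08% of that of Hs3st4 overlaps the antisense gene Gm27040.

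Sequences upstream of the RefSeq start are shown for 3 genes. Hs3st4 was called, Hs3st5 had a like estimate without a call, and Hs3st2 had a like level without either. Each is the 250 bases before the RefSeq start on GRCm38.p6, on the plus strand and written 5′ to 3′. The windows are chr7:123982578-123982827 for Hs3st4, chr7:121392046-121392295 for Hs3st2 and chr10:36506557-36506806 for Hs3st5. In GENCODE M21 Hs3st2 starts at 121391859, so its window lies inside the gene by that annotation and not upstream of it. Capitals mark, on either strand, the cAMP response element (TGACGTCA), the GC box (GGGCGG) and the CCAAT box (CCAAT). The TATA box (TATAAA) was searched as well and had no match in the 3 windows.
Hs3st4: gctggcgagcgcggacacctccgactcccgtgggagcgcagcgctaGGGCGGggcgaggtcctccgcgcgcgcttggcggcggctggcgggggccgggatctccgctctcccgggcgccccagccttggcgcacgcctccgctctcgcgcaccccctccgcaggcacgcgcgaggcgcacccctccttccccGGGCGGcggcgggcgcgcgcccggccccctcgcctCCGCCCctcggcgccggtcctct
Hs3st2: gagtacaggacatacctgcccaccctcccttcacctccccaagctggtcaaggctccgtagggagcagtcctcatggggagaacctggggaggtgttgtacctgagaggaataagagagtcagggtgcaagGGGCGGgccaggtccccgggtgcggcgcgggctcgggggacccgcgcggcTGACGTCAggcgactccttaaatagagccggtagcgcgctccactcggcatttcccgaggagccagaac
Hs3st5: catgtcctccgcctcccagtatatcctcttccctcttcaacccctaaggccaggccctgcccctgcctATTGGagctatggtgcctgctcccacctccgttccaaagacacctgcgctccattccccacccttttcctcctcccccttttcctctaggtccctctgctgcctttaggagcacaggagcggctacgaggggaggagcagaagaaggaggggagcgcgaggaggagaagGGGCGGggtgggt
The window of Hs3st4 held 3 GC boxes and no match to the other motifs, and its content of G and C was 82.0%. Hs3st2 had 1 GC box, 1 cAMP response element and 64.8% G and C, and Hs3st5 had 1 GC box, 1 CCAAT box and 62.0%. Over all 32851 RefSeq windows of this length, 32.7% held a GC box, 1.55% a cAMP response element, 33.8% a CCAAT box and 12.4% a TATA box, with a median of 52.4% G and C. The 37 enzymes with an entry had 44 windows, of which 28 held a GC box and 3 a cAMP response element. By gene, 27 of the 37 had a GC box and 3 a cAMP response element in at least 1 window. A match describes the letters and was not tested as a binding site.

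The last role is the remodelling of finished chains outside the cell. Sulf2 and Sulf1 are paralogous endosulfatases, while Hpse is the heparanase that cuts the chain and Hpse2 is a relative without that activity. Sulf2 dominated, with 619 per kb and 92.1% of the summed level of the role. Sulf1, on the plus strand of chromosome 1 from 12692277 to 12861192 (mm10), stood at 44.9 per kb, or 90.5 on the longest transcript. Hpse stood at 8.06 and Hpse2 at 0.426 per kb. The called gene was thus the minor of the 2 endosulfatases by transcript level.

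Sulf2 had a log2 fold change of 0.11 ± 0.07 (SE) and an adjusted p-value of 0.858 by DESeq2's Wald test in the authors' deposited table. Its 95% interval, from -0.03 to 0.24, lay below that of Sulf1, from 0.39 to 0.84, and the difference between the paralogs was not tested. No exon of Sulf1 overlaps another annotated gene in GENCODE M21, whereas 2.62% of the exon length of Sulf2 overlaps Ncoa3. Hpse had the lowest value of all the enzymes, -0.55 ± 0.34 (SE), with an unadjusted p-value of 0.106 by DESeq2's Wald test in the authors' deposited table. Its mean count of 28.3 per the authors' deposited table was too low for an adjusted p-value, so it could not be called. At its error, only a 2.40-fold difference would have reached the Wald size of the last called gene. Hpse2 had a mean count of 1.97 per the authors' deposited table and was not resolved.

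**Figure D2:**
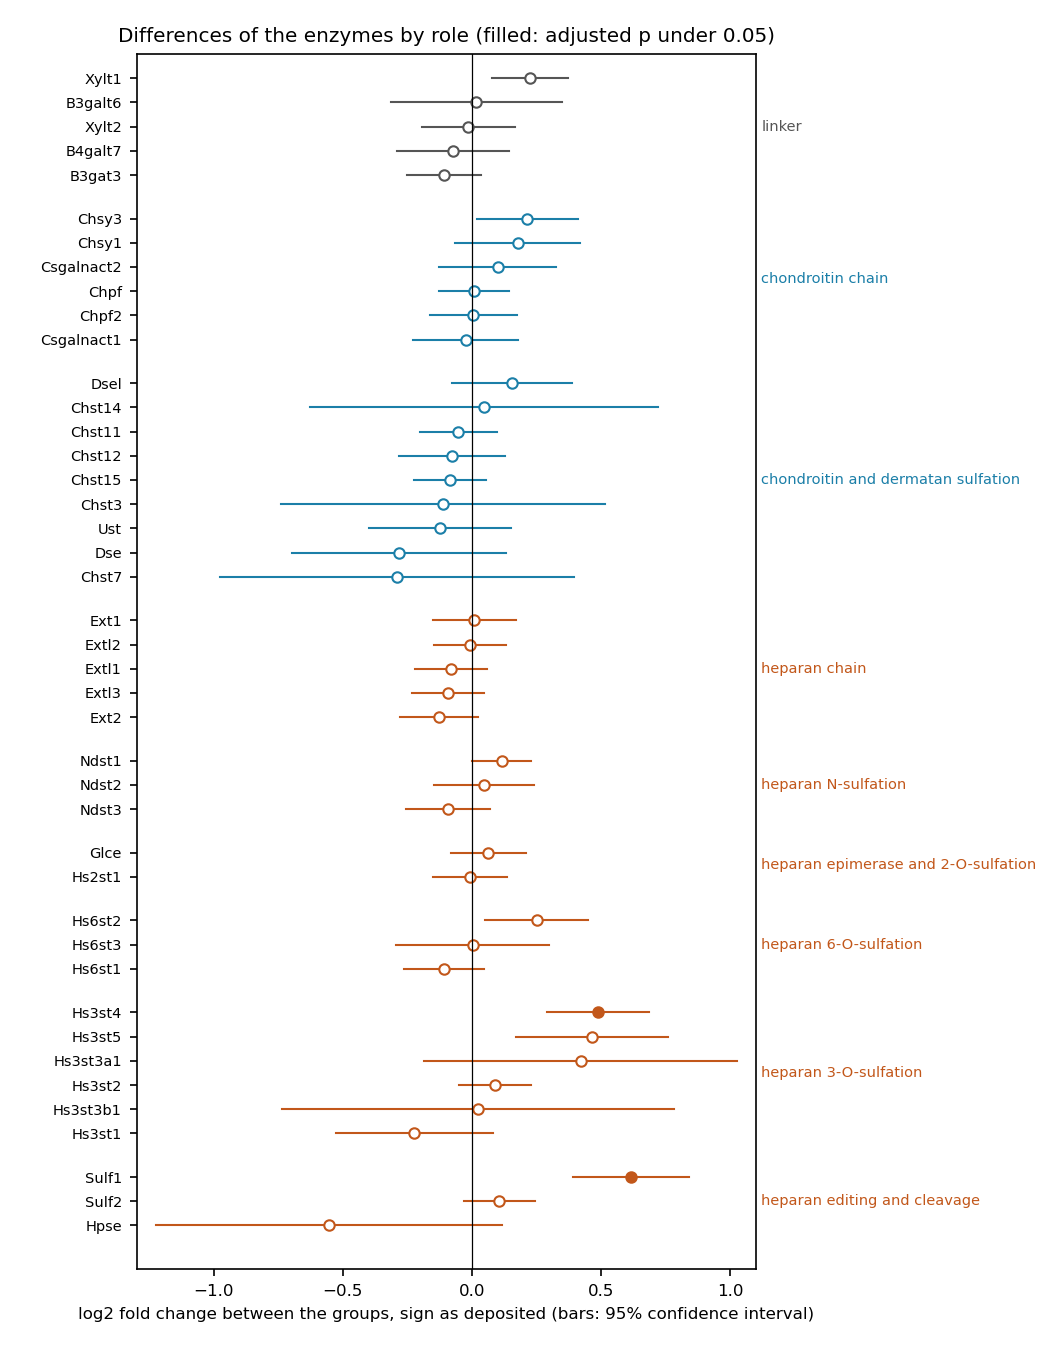
Log2 fold change (sign as deposited) with its 95% confidence interval for the enzymes grouped by role, filled where the adjusted p-value was under 0.05. Sulf1 at 0.62 and Hs3st4 at 0.49 are filled, most other intervals include 0, and Ndst4 and Hpse2 are left out for their wide intervals.

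Precision set what could be seen. A call needed a difference of about 3.68 standard errors. For 34 of the 43 enzymes with a p-value this came to less than 1.5-fold, and for 7 to more than 2-fold. The 7 were Chst3, Chst7, Chst14, Hs3st3a1, Hs3st3b1, Hpse and Hpse2, with 27.5-fold for Hpse2. Of these, only Chst3 and Hs3st3a1 had an adjusted p-value, and the others could not be called whatever the difference. The 95% interval stayed within a 2-fold difference in either direction for 40 enzymes and within 1.5-fold for 32. Standard errors of the 38 enzymes with an adjusted p-value were between 0.931 and 1.42 times the median of genes of similar mean count, with a median ratio of 1.05. Hs3st4 had the highest of these ratios, 1.42, near those of the layer markers. Myelin and oligodendrocyte markers had a median ratio of 6.64, striatal markers 3.34, deep-layer markers 1.48 and upper-layer markers 1.37.

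**Figure D3:**
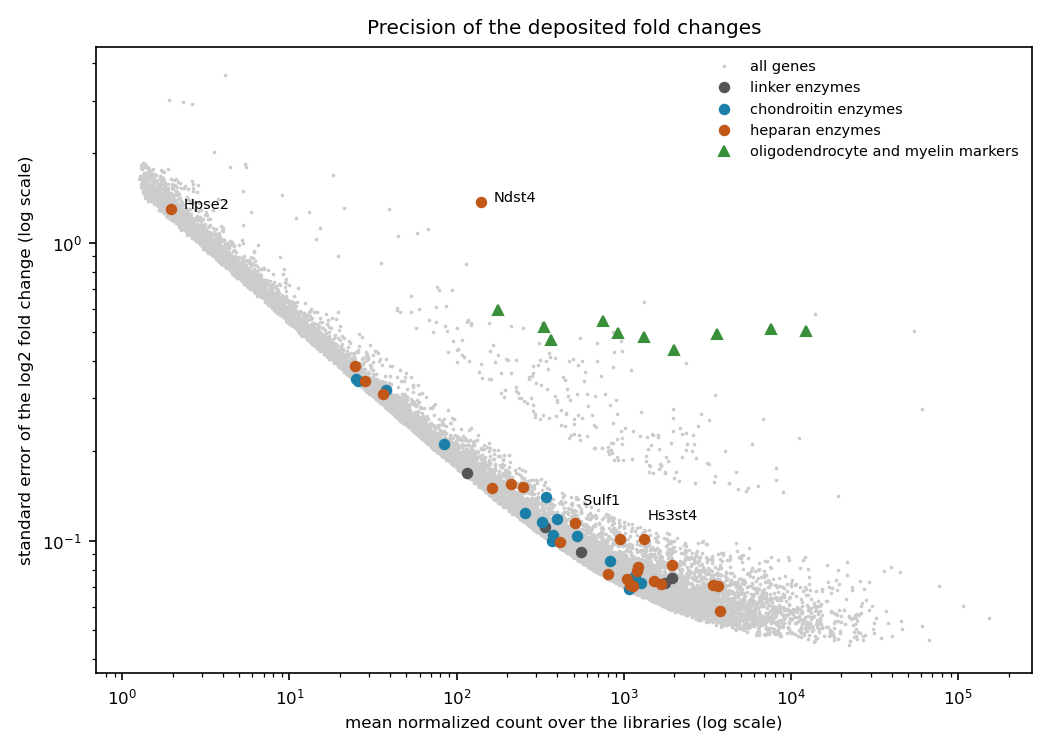
Standard error of the log2 fold change against the mean normalized count (both log axes) for all genes (grey), the enzymes by class, and 10 oligodendrocyte and myelin markers (triangles). The enzymes follow the trend of all genes, with Ndst4 at 1.37 apart from it, as are the myelin markers.

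The rest of the pathway showed no call. Of 51 genes for core proteins, precursor supply, linker phosphorylation and lysosomal breakdown, 48 had an adjusted p-value. None was called by DESeq2's Wald test, where 0.513% of all genes with an adjusted p-value were. By the same test, 4 of the 51 (7.84%) had an unadjusted p-value under 0.05, near the 6.82% of all genes. All 4 were negative, and the difference in sign from the 7 enzymes was not tested. Gpc5 and Agrn, heparan sulfate core proteins, had -0.28 and -0.11 (SE 0.11 and 0.06) per the authors' deposited table. Cspg5, a chondroitin sulfate core protein of neurons, had -0.10 ± 0.05 (SE) per the authors' deposited table. Of the 13 heparan sulfate core proteins 10 were positive (median log2 fold change 0.06), and of the 9 chondroitin sulfate core proteins 4 were, with a median of -0.0043. Among 10 genes that supply activated sulfate and nucleotide sugars, 7 were positive and none had an unadjusted p-value under 0.05 by DESeq2's Wald test. The smallest p-value there was that of Impad1, a phosphatase that clears the by-product of sulfation, with a log2 fold change of 0.11 ± 0.07 (SE) per the authors' deposited table. Both enzymes that act on the xylose of the linker, the kinase Fam20b and the phosphatase Pxylp1, lay at 0.03 and 0.04 (SE 0.06 and 0.12) per the authors' deposited table. Of 17 breakdown genes 9 were positive, with a median of 0.02.

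Markers of deep cortical layers, of striatum and of myelin shared the sign of the called enzymes. Hs3st4 is itself a common marker of layer 6 neurons. The marker lists were chosen with earlier results of these data known, so the signs they share are description only. All 11 deep-layer markers, a list without Hs3st4, were positive (median log2 fold change 0.50), and 4 were called by DESeq2's Wald test. The 4 were Ccn2, Nxph4, Foxp2 and Tle4, with log2 fold changes of 2.10, 1.98, 0.73 and 0.33 per the authors' deposited table. All 8 upper-layer markers were negative, with a median of -0.24, and 2 of them, Rasgrf2 and Otof, were called by DESeq2's Wald test. Striatal markers were positive in 8 of 8, with a median of 0.73 and 1 call, Drd1 at 0.76 per the authors' deposited table. Oligodendrocyte and myelin markers were positive in 10 of 10, with a median of 1.28 and no call by DESeq2's Wald test, and 10 had an unadjusted p-value under 0.05. None of these markers was at 0, with mean counts from 53.4 to 2550.3 in the deep list, 708 to 4304 in the upper list, 71.3 to 2354 in the striatal list and 177 to 12290 in the myelin list. Levels by group were not analysed here, and the part of these cell types in the values of Sulf1 and Hs3st4 was not tested.

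The medians of other cell types lay between -0.17 and 0.26. They were 0.06 for 6 oligodendrocyte precursor markers, -0.05 for 7 astrocyte markers, -0.11 for 6 microglial markers, -0.17 for 6 endothelial markers, 0.26 for 6 leptomeningeal fibroblast markers and -0.02 for 6 parvalbumin interneuron markers. None of these markers was called by DESeq2's Wald test, and 2 astrocyte, 1 microglial and 3 endothelial markers had an unadjusted p-value under 0.05. The fibroblast markers had mean counts from only 9.81 to 117, and just 3 of the 6 had an adjusted p-value and could be called. General cortical neuron markers, present at mean counts from 2316 to 106077 per the authors' deposited table as the tissue label implies, had a median of -0.02. Camk2a was called among these 6, with a log2 fold change of -0.29 and an adjusted p-value of 0.00151 by DESeq2's Wald test in the authors' deposited table.

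**Figure D4:**
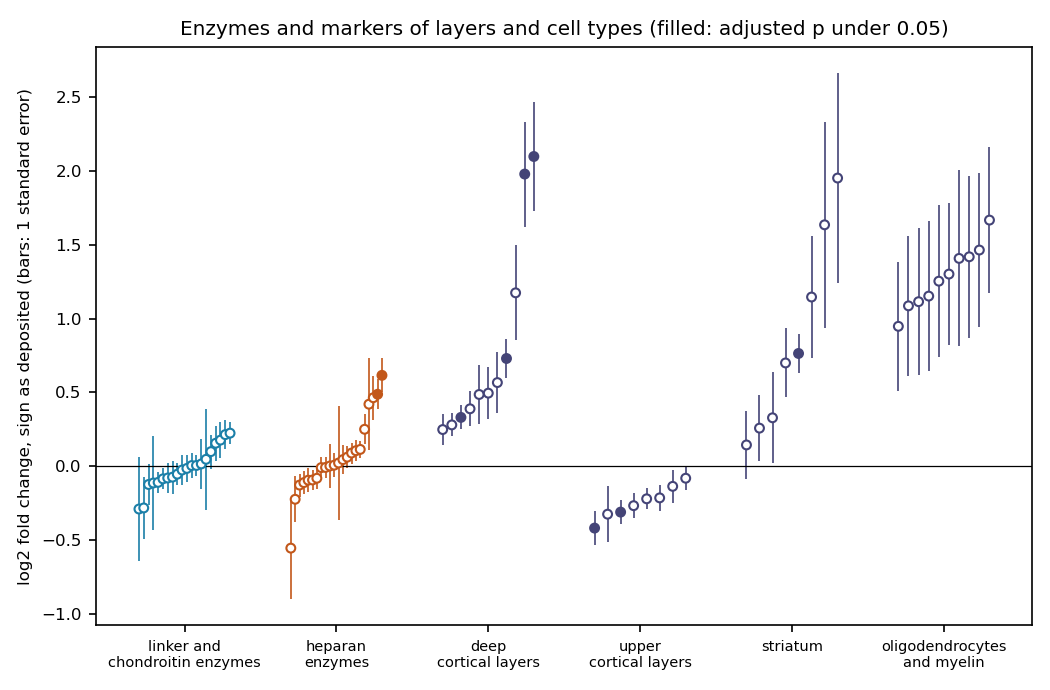
Log2 fold change (sign as deposited, bars 1 standard error) of linker and chondroitin enzymes, heparan enzymes and 4 marker lists, sorted within each, filled where the adjusted p-value was under 0.05, without Ndst4 and Hpse2. Deep-layer, striatal and myelin markers are all above 0 and upper-layer markers all below, in lists chosen with earlier results of these data known. The filled heparan enzymes, Sulf1 and Hs3st4, lie within the range of the deep-layer values and also within that of the striatal values.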

How the data were processed

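Per the labels' protocols, RNA from an RNeasy Micro column (100 ng) was made into libraries by the KAPA mRNA HyperPrep method. Trimmomatic, Subread and DESeq2 and the build mm10 are named in the submitters' processing notes, without versions. The gene annotation and the strand setting are not given in the sources used here. Per the file headers, the authors deposited 1 table with the mean normalized count (a signal averaged over the 7 libraries), the log2 fold change and its standard error on the log2 scale, the Wald score, the p-value and the adjusted p-value. Depth per library is unknown. The deposited adjustment ran over 14432 genes, a number recovered from the adjusted p-values, of which 1372 were not analysed here. Mean counts of 34.8 or less had no adjusted p-value.

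The design had planned a count test as an option, but a table of results allowed only the deposited Wald test. Confidence intervals are the log2 fold change plus or minus the normal quantile times its standard error. Each standard error was divided by the median of the 201 genes nearest in mean count. GENCODE M21 (GRCm38, the assembly of mm10) held 17726 of the 17732 gene IDs. Alternatives were a threshold of 0.1, no filter on the mean count, a minimum of 100, a Bonferroni adjustment, a null of a change of at most 1.2-fold and, chosen after seeing the data, another transcript length. The adjustment as computed here for the alternatives was tried on simulated fold changes, which tests neither the deposited adjustment nor the deposited Wald test. Python 3.11.15, pandas 2.3.3, scipy 1.17.1 and matplotlib 3.10.9 were used. The enzymes and gene lists were chosen with earlier results of these data known. The estimate, its standard error and, where listed, a p-value are given for enzymes under an unadjusted p-value of 0.05 and for those of each role with the highest mean count and the highest and lowest log2 fold change. In other lists, called genes or the one with the smallest p-value were to be named, and further genes were named after their values were seen. A single pathway gene is not reported here by name.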

Additional observations from a re-analysis of the deposited data

How the results depend on the processing

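Sulf1 and Hs3st4 were the only 2 enzymes called at a threshold of 0.1, with no filter on the mean count, with a minimum mean count of 100 and with a Bonferroni adjustment. In a test for a difference of more than 1.2-fold, 0 enzymes were called, as that test is stricter by construction. Over all genes, the count of 67 became 101 at a threshold of 0.1, 21 with the Bonferroni adjustment and 2 under the 1.2-fold null, and it stayed within 1.5 times under the other alternatives. Of the 67 genes 48 were positive, as were 17 of the 21 and both of the last 2. No pathway gene was called under any of these alternatives. The medians of linker, chondroitin and heparan enzymes kept their signs on Wald statistics and over enzymes with an adjusted p-value. The most abundant gene of a role changed with the transcript length for 2 of 9 roles, from Chst11 to Chst15 and from Hs3st4 to Hs3st2.

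No paired analysis was possible because the table gives results per gene, not per library. Leaving out each library, a replicate block and other count normalizations were therefore not run, and whether 1 library decides a value was not tested. Differences under 2-fold were not detectable for 7 enzymes of low mean count.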

Other observations

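Related sugar polymers were looked up after the results above had been seen. Keratan sulfate and HNK-1 are other sulfated glycans of the net and of neural adhesion proteins. All 7 of their enzymes examined were negative (median log2 fold change -0.13), and none of the 5 with an adjusted p-value was called by DESeq2's Wald test. Chst2, a sulfotransferase for N-acetylglucosamine, had the smallest unadjusted p-value of the 7, 0.00349, with a log2 fold change of -0.18 ± 0.06 (SE) and an adjusted p-value of 0.220 by DESeq2's Wald test in the authors' deposited table. Chst1, the keratan sulfate sulfotransferase, and B3gat1, which makes the HNK-1 epitope, were abundant at 1979 and 1113 per kb, with log2 fold changes of -0.06 and -0.11 (SE 0.06 and 0.08) per the authors' deposited table.

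Hyaluronan, the unsulfated polymer that anchors lecticans, is made by Has1, Has2 and Has3. They stood at 15.0, 1.92 and 17.1 per kb, and neither of the 2 with an adjusted p-value, Has1 and Has3, was called by DESeq2's Wald test. Has3 had a log2 fold change of 0.27 ± 0.18 (SE) per the authors' deposited table. Fibroblast growth factor receptors bind their ligands together with heparan sulfate, and 6-O-sulfate, the substrate of Sulf1, takes part in that complex. Of 5 receptor genes, 3 were positive, and none of the 4 with an adjusted p-value was called by DESeq2's Wald test. Fgfr2 had a log2 fold change of 0.35 ± 0.14 (SE), an unadjusted p-value of 0.0112 and an adjusted p-value of 0.379 by DESeq2's Wald test in the authors' deposited table, while Fgfr1 and Fgfr3 lay at 0.02 and -0.11 (SE 0.08 and 0.07) per the authors' deposited table.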
